A study of Mus musculus with 8 samples.

Results

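Tumor-infiltrating neutrophils were a minor population of the CD45+CD11b+Ly6Chi cells sorted from MC38 tumors, a mouse colon carcinoma model, and were described here against the neutrophils of the blood sorts. They were chosen by measured values. A tumor barcode was a member when Csf3r, Cxcr2, G0s2, Hdc, S100a8 and S100a9 together made up at least 1% of its gene UMIs (unique molecular identifiers, each standing for 1 captured mRNA molecule) and C1qa, C1qb and C1qc together had at most 2 UMIs. Of 12330 tumor barcodes that had passed the filters and carried a genotype label, 557 met this rule. Blood neutrophils were taken with the same genes at 5% or more, and 11459 barcodes met it, out of 30281 labelled barcodes in the series as a whole.

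Tumor and blood cells were each loaded as a control and an IR droplet library, 4 in all and 8 groups with the genotype labels. IR was 20 Gy given locally to the tumor, and cells were collected 3 days later. Each library mixed cells of WT mice (Ythdf2 fl/fl without Cre) and of Ythdf2-cKO mice (LyzCre+;Ythdf2 fl/fl), all on the C57BL/6J background and all bearing MC38 tumors, told apart by hashtag antibodies. Every group was 1 pool of mice, so no value has a replicate, no test between groups was made, and the 95% intervals given throughout cover counting error only. LyzCre acts in myeloid cells, including neutrophils, through the Lyz2 locus. The sort was made on Ly6Chi, the gate for monocytic myeloid-derived suppressor cells (mMDSC), so all shares are shares of that gate and not of the tumor or the blood.

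Neutrophils are short-lived granulocytes made in the bone marrow, released into blood as mature cells, and recruited to tissue by chemokines that act on CXCR2. Their granule proteins are transcribed during development in the marrow, and transcripts of mature cells encode calcium-binding S100A8 and S100A9, receptors and cytokines. In tumors, neutrophils are known to live longer than in blood and to take up programs of inflammation, hypoxia and immune suppression.

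The label was checked against markers first. The given markers Csf3r, Cxcr2, G0s2, Hdc and Ccl3 made up 1.29% to 2.02% of gene UMIs in the 4 tumor neutrophil groups and 0.0326% to 0.0612% in the other tumor cells. Of these, Ccl3 was the only marker the rule had not used, so this sum is not a check independent of the rule. The 9 markers outside the rule summed to 1.28% to 1.49% against 0.0890% to 0.182% in other tumor cells, so the members carried neutrophil genes that had not chosen them. Ly6g, which encodes the surface antigen used to define mouse neutrophils, was low in tumor. It had 0 UMIs in tumor control labelled WT, and levels of 13.4, 8.02 and 17.9 CPM (UMIs of the gene per 1000000 gene UMIs) in the tumor control labelled cKO, tumor IR labelled WT and tumor IR labelled cKO groups, against 77.6 to 194 CPM in the 4 blood groups. A count of 3 UMIs would be 59.7 and 40.3 CPM in tumor control labelled WT and cKO, so the values there rest on fewer.

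Members were not free of other cells' transcripts, whose part in the results was not tested, nor were doublets called. Monocyte markers (8 of 8 genes with a UMI) summed to 0.199% to 0.280% of UMIs in the 4 tumor groups, macrophage markers (8 to 10 of 10) to 0.0794% to 0.121%, and dendritic cell markers (4 to 7 of 10) to 0.0604% to 0.398%. In other tumor cells these sums were 0.412% to 0.761%, 0.343% to 0.558% and 1.11% to 1.49%. The dendritic cell genes Flt3, Xcr1 and Clec9a were at 0 in all 4 tumor groups. All 4 erythroid genes were at 0 in the tumor groups and the 6 eosinophil genes had no UMI in tumor IR. The T cell genes Cd3e, Trbc2, Cd8a and Cd4, the B cell genes Cd79a and Ms4a1, and 4 of 5 carcinoma genes were at 0 throughout. Mcpt8, a basophil protease, reached 121 CPM in tumor control labelled cKO and was at 0 in the other 3 tumor groups. Cycling genes summed to 0.00119% to 0.00806%, against 0.0202% to 0.0651% in other tumor cells.

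Ythdf2 and Lyz2 were read as a check of the genotype labels. Ythdf2 stood at 0 and 28.1 CPM in tumor neutrophils labelled WT (control, IR) and at 148 and 133 CPM in those labelled cKO. In blood it stood at 20.6 and 17.3 CPM under the WT label and at 151 and 163 CPM under the cKO label. Thus Ythdf2 counts were higher under the cKO label in tumor and blood. Counts of 3′ ends do not show whether the floxed part of the transcript was present, so they do not check the deletion, but they were not lower under the cKO label. Lyz2, the locus that carries Cre, stood at 1173 and 1646 CPM in tumor neutrophils labelled WT and at 188 and 133 CPM in those labelled cKO, and at 3185 and 3260 against 125 and 105 CPM in blood. Genotypes are therefore given as labels.

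Barcodes were shared between the tumor matrices, and this touches every comparison of tumor control with tumor IR. Of the 49 tumor control members, 5 also carried at least 20 hashtag UMIs in the tumor IR matrix, and 7 of the 508 tumor IR members did so in the tumor control matrix. In addition, 517 barcodes of the tumor control matrix met the gene rule but had fewer than 20 hashtag UMIs there. All 517 carried hashtags in the tumor IR matrix, and 494 of them met the full rule there, counted with or without a genotype label. The reverse count was 45 barcodes, of which 43 met it in tumor control, counted in the same way. The minimum of 20 hashtag UMIs kept these barcodes out. Member barcodes shared between a tumor and a blood library numbered 0 or 1.

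Neutrophils were 0.740% (exact interval 0.453% to 1.14%) of labelled cells in tumor control labelled WT, 20 of 2703, and 8.67% (7.74% to 9.67%) in tumor IR labelled WT, 292 of 3367. Under the cKO label they were 1.27% (0.852% to 1.82%), 29 of 2284, in tumor control and 5.43% (4.75% to 6.18%), 216 of 3976, in tumor IR. The share was thus 7.93 points (6.94 to 8.96) higher after IR under the WT label, an 11.7-fold ratio, and 4.16 points (3.30 to 5.004) higher under the cKO label, a 4.28-fold ratio. In blood, where neutrophils filled 62.4% to 66.0% of the gate, the same differences were 1.66 points (-0.228 to 3.55) and 2.85 points (0.750 to 4.95). Within tumor IR the share was 3.24 points lower under the cKO label (interval of the difference, -4.44 to -2.07), and in tumor control it was 0.530 points higher (-0.0250 to 1.14). Without the members that carried hashtags in the other tumor matrix, the differences between IR and control were 8.03 and 4.36 points and those between labels -3.26 points in tumor IR and 0.416 points in tumor control. These shares were set by the sort, the rule and the hashtag minimum. Without the hashtag minimum, barcodes with no hashtag UMIs count as WT. Shared barcodes are then also counted in the tumor matrix where they lack hashtags, most of them in tumor control. Counted so, the difference between IR and control under the WT label was -1.05 points. That under the cKO label was 2.69 points, and in tumor IR the share was then 0.804 points higher under the cKO label.

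**Figure D1:**
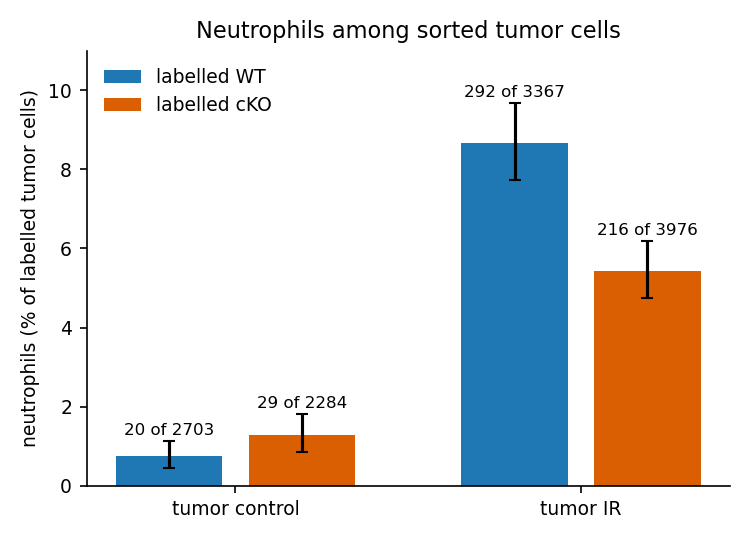
Share of labelled tumor barcodes that met the neutrophil rule (percent, y axis) in tumor control and tumor IR by genotype label, with exact 95% binomial intervals as error bars and member counts above the bars; the shares ran from 0.740% in tumor control labelled WT to 8.67% in tumor IR labelled WT.

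Depth was low in these cells. The median was 1887 to 2288 gene UMIs per tumor neutrophil, against 6330 to 8629 in other tumor cells and 2547 to 2699.5 in blood neutrophils. Summed over a group, tumor control held 50281 (WT label) and 74479 (cKO label) UMIs, tumor IR 748338 and 502841, and the blood groups 7345860 to 9344441. A count of 3 UMIs, taken as the limit that a count of 0 allows, corresponded to 24.0 CPM over tumor control as a whole, to 4.01 and 5.97 CPM in tumor IR, and to at most 0.408 CPM in blood. In tumor control by label it was 59.7 (WT) and 40.3 CPM (cKO). A gene was compared only where at least 10 UMIs were expected in each group at equal share. It was counted as past the limit where the log2 ratio of levels, with 1 UMI added, was 1 or more in size.

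Against blood IR neutrophils of the same label, tumor IR neutrophils carried far higher levels of chemokine, cytokine, hypoxia and interferon-response transcripts and lower levels of granule transcripts. Of 4804 genes compared under the WT label, 629 were higher and 1715 lower past the limit, 48.8% in all (13.1% higher and 35.7% lower), with a median log2 ratio over all genes of -0.55. Under the cKO label it was 520 higher and 1333 lower of 4018 (46.1%; 12.9% and 33.2%; median -0.47). The minimum of 10 expected UMIs is met more easily by genes of the larger group: Fcnb, at 15.3 CPM in blood IR labelled WT and 0 in tumor, was compared, and Cxcl9, at 96.2 CPM in tumor IR labelled WT and 0 in blood, was not. The excess of lower genes and the median over all genes are thus in part set by this minimum, which in the comparison of tumor IR with tumor control favours genes that were higher in tumor IR. With levels centred on the median gene the split was 1056 higher and 1022 lower under the WT label and 801 and 855 under the cKO label. The split of higher and lower genes thus depended on that shift. Counts and ratios elsewhere are not centred on it unless this is stated. The tumor threshold was 1% and the blood threshold 5%, so the genes of the rule were not compared.

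Chemokines showed the largest ratios of the gene lists. Of 10 chemokines compared under the WT label, 8 were higher and 0 lower past the limit, with a median log2 ratio of 6.77, and under the cKO label 7 of 8 were higher (median 6.25). Of all genes, 13.1% (WT label) and 12.9% (cKO label) were higher. Ccl3 and Ccl4, neighbours on chromosome 11 (mm10, 83647844 to 83649355 and 83662584 to 83664683), encode attractants of monocytes and T cells. Ccl3 stood at 4733 and 11359 CPM in tumor control (WT, cKO label), 9521 and 8842 CPM in tumor IR, 96.0 and 18.4 CPM in blood control, and 36.4 and 32.9 CPM in blood IR. All 4 tumor groups were above all 4 blood groups, and other tumor cells stood at 297 and 493 CPM. The log2 ratio of tumor IR to blood IR was 8.02 (7.87 to 8.19) under the WT label and 8.06 (7.88 to 8.26) under the cKO label. For Ccl4 it was 8.84 (8.70 to 9.01) and 8.14 (8.00 to 8.29). Cxcl2 (chromosome 5, 90903871 to 90905938) and Cxcl3 encode ligands of CXCR2 itself. Cxcl2 stood at 32637, 36802, 58798 and 47832 CPM in tumor (control WT and cKO label, then IR WT and cKO label) and at 1173 to 4641 CPM in blood. Cxcl2 UMIs thus made up several percent of all gene UMIs in tumor neutrophils, and other tumor cells reached 6916 CPM. Cxcl3 was 4511 to 9667 CPM in tumor and 3.68 to 21.7 CPM in blood. Cxcl1, a further CXCR2 ligand, stood at 424 and 153 CPM in tumor IR and at no more than 0.323 CPM in the blood groups. Ccl6, in contrast, differed little between the sites, with log2 ratios of 0.19 and 0.04.

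The cytokines and mediators followed, with 10 of 10 higher under the WT label (median 2.41) and 9 of 9 under the cKO label (median 2.56), where 13.1% and 12.9% of all genes were higher. Il1a, which encodes the alarmin interleukin-1α, stood at 239 and 832 CPM in tumor control and 1422 and 996 CPM in tumor IR. In blood it was 0.136 to 0.373 CPM in the 4 groups, at or under the level of 3 UMIs. Il1b was abundant at both sites, with 15771 to 28843 CPM in tumor and 6055 to 9560 CPM in blood, and a log2 ratio of 1.80 (1.78 to 1.82) under the WT label and 1.91 (1.88 to 1.94) under the cKO label. Tnf, Il1rn (the interleukin-1 receptor antagonist) and Ptgs2 (cyclooxygenase 2) had log2 ratios of 5.46, 3.52 and 2.13 under the WT label. Il10 had 1.34 and 3.98 CPM in tumor IR, under the level of 3 UMIs. Of the 25 interferon-response genes, 22 were higher than in blood IR under the WT label (median 2.52) and 21 under the cKO label (median 2.48), with 0 lower.

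**Figure D2:**
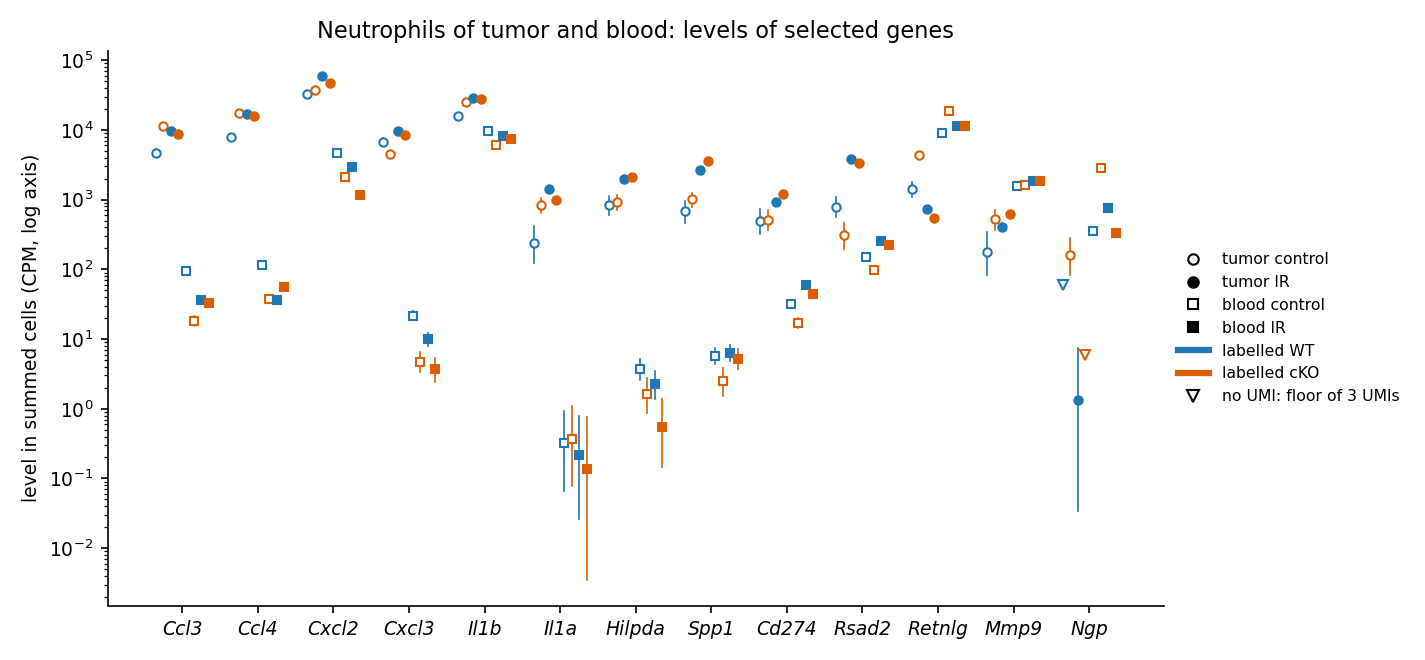
Levels of selected genes (CPM, logarithmic y axis) in the 8 neutrophil groups, with circles for tumor, squares for blood, open marks for control, filled marks for IR, color for the genotype label and exact 95% Poisson intervals as lines; a triangle marks the level of 3 UMIs where a group had none. Ccl3, Ccl4, Cxcl3 and Hilpda were higher in each tumor group than in each blood group, and Retnlg was lower.

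Hypoxia and glycolysis genes were compared for 20 members under the WT label, of which 14 were higher and 1 lower past the limit (median 2.08), and for 18 under the cKO label, with 12 higher and 1 lower (median 2.03). Of all genes, 13.1% (WT label) and 12.9% (cKO label) were higher. Hilpda (chromosome 6, 29272488 to 29275446), a lipid droplet protein induced by hypoxia, stood at 835 and 913 CPM in tumor control, 1956 and 2144 CPM in tumor IR, and 0.545 to 3.75 CPM in blood. No blood group came near a tumor group, and other tumor cells stood at 341 and 693 CPM. Its log2 ratio was 9.64 (9.14 to 10.45) under the WT label and 11.39 (10.58 to 13.82) under the cKO label, the latter resting on few blood UMIs. Egln3, an oxygen-sensing prolyl hydroxylase, Ero1l, an oxidase of the endoplasmic reticulum, and Vegfa, the angiogenic factor, had log2 ratios of 4.54, 4.44 and 3.09 under the WT label. The glucose transporters differed: Slc2a1 had a log2 ratio of 2.22 and Slc2a3 one of -1.30. Iron and antioxidant genes had 6 higher and 1 lower of 10 under the WT label (median 1.74), where 13.1% of all genes were higher and 35.7% lower. Fth1, the heavy chain of ferritin, was 46550 to 53900 CPM in tumor and 5303 to 7707 CPM in blood.

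Among suppressive and angiogenic factors 6 of 8 were higher under each label and 1 was lower. Of all genes, 13.1% (WT label) and 12.9% (cKO label) were higher. Cd274 (chromosome 19, 29367455 to 29388095), which encodes the checkpoint ligand PD-L1, stood at 497 and 510 CPM in tumor control, 935 and 1187 CPM in tumor IR, and 17.03 to 58.9 CPM in blood. Its log2 ratio was 3.98 (3.83 to 4.15) under the WT label and 4.75 (4.56 to 4.95) under the cKO label. Arg1, which encodes the arginine-degrading enzyme arginase 1, was at 0 UMIs in all 4 blood groups and at 577, 443, 917 and 943 CPM in the tumor groups, at least 2838-fold and 2308-fold higher in tumor IR than in blood IR by the limit that a count of 0 allows. Arg1, however, followed the share of rule genes. It stood at 2349 CPM in the 98 tumor IR members with 1% to 2% rule genes, at 609 CPM in the 177 with 2% to 5%, and at 115 CPM in the 233 with 5% or more, while other tumor IR cells stood at 3715 CPM. The part of other cells' RNA in the Arg1 level was not tested. The same held for Ccl2 (1462, 279 and 115 CPM over these 3 ranges) and Ccl7, but not for Cd274 (826, 1342 and 917 CPM).

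NF-kB targets had 11 higher and 1 lower of 14 under the WT label (median 1.67) and 10 and 0 of 14 under the cKO label (median 1.77). Of all genes, 13.1% were higher and 35.7% lower under the WT label, and 12.9% and 33.2% under the cKO label. Sod2, Traf1 and Icam1 had log2 ratios of 4.84, 4.50 and 4.44 under the WT label. In the BCL2 family 7 of 13 were higher and 2 lower under the WT label. The antiapoptotic genes Bcl2a1b, Bcl2a1d and Bcl2a1a were at 4.43, 4.45 and 3.57, values that are uncertain between these near-identical copies, and Mcl1 was at 0.40. The proapoptotic Bid was at -2.40. Among 8 targets of p53, 3 were higher and 2 lower, where 13.1% and 35.7% of all genes were. Cdkn1a, a cell cycle inhibitor, stood at 1869 to 2944 CPM in tumor and 15.5 to 71.5 CPM in blood.

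Granule genes were on the other side. Of 10 compared under the WT label, 9 were lower and 0 higher past the limit, with a median of -2.68 when the 4 genes at 0 in tumor IR were set to their bounds. Under the cKO label 5 of 7 were lower and 0 higher. Of all genes, 35.7% (WT label) and 33.2% (cKO label) were lower. The blood side differed as well: after IR, 7 of 12 granule genes were higher in blood under the WT label and 5 of 8 lower under the cKO label. Within blood IR, 8 of 12 were lower under the cKO label. Camp, the cathelicidin gene, had 0 UMIs in all 4 tumor groups and 139.5 CPM in blood IR labelled WT, at least 34.8-fold higher there. Ngp, a neutrophil granule protein, had 1 UMI in tumor IR against 746 and 331 CPM in the blood IR groups. In tumor control labelled cKO, however, Ngp, Prtn3 and Elane stood at 161, 94.0 and 26.9 CPM, and in tumor control labelled WT they were at 0. The Elane value was under the level of 3 UMIs. Retnlg, a secreted protein of neutrophils, stood at 1412 and 4297 CPM in tumor control, 728 and 541 CPM in tumor IR, and 8933 to 18546 CPM in blood, and thus was lower in every tumor group. Elane and Prtn3, the primary granule proteases, were at 43.9 and 34.9 CPM in blood IR labelled WT and at no more than 2.18 CPM in the other blood groups, so their ratio under the WT label rested on that group. Of the 22 other neutrophil identity genes, 5 were higher and 11 lower under each label. Of all genes, 13.1% were higher and 35.7% lower under the WT label, and 12.9% and 33.2% under the cKO label. The list's medians were -0.90 (WT label) and -1.02 (cKO label), where those of all genes were -0.55 and -0.47. Acod1, which makes itaconate, was the highest at 4.41 (WT label) and 4.87 (cKO label).

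Genes of movement, adhesion and the oxidative burst were also compared. Of 8 actin and motility genes, 0 were higher and 4 lower under the WT label (median -1.12) and 0 and 5 under the cKO label (median -1.09), where 35.7% and 33.2% of all genes were lower. Coro1a and Tmsb4x had log2 ratios of -1.86 and -1.76, below the all-gene median. Of 11 adhesion molecules, 2 were higher and 5 lower under each label, with medians of -0.05 (WT label) and -0.75 (cKO label), the former above and the latter below the median of all genes. The adhesion genes Itga4, Itgal and Selplg were at -3.18, -2.49 and -2.27, and Icam1 and Cd9 were higher. Of the NADPH oxidase genes, which make the oxidative burst, Rac2 was lower under the WT label, at -2.21, and the list's median of -0.68 was close to that of all genes. Cxcr2 and Csf3r belong to the rule and are given as levels only: Cxcr2 stood at 629 to 793 CPM in tumor and 1551 to 1993 CPM in blood, and G0s2 at 5012 to 7565 CPM in tumor and 445 to 982 CPM in blood.

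Tumor control neutrophils were set against blood control neutrophils as a comparison without IR, over both labels. Of 1554 genes compared, 176 (11.3%) were higher and 513 (33.0%) lower past the limit, 44.3% in all, with an all-gene median of -0.43. The chemokines (3 of 4 higher) and the cytokines and mediators (7 of 7 higher, median 1.81) were higher without IR as well, and 3 of 8 hypoxia genes were higher. Of 10 interferon-response genes compared, 3 were higher and 2 lower. The comparison rested on 49 tumor cells.

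The interferon response is the program that type I and II interferons switch on through STAT proteins and IRF9, and its genes encode antiviral proteins, guanylate-binding proteins and chemokines. Tumor IR neutrophils carried it at higher levels than tumor control neutrophils. Of 1405 genes compared over both labels, 112 were higher and 56 lower past the limit, 12% in all, with an all-gene median of -0.10. Centred on the median gene the split was 128 and 38. Of the 25 interferon-response genes, 22 were higher and 0 lower past the limit, with a median log2 ratio of 2.402. Under the WT label alone 20 of 23 were higher (median 2.31; 14.8% of 690 genes past the limit) and under the cKO label 23 of 25 (median 2.56; 18.5% of 958 genes). Other tumor cells showed it as well, with 24 of 25 higher and a median of 2.45, against a background of 19.2% of 13822 genes past the limit. In blood neutrophils 9 of 25 (WT label, median 0.78) and 10 of 25 (cKO label, median 0.84) were higher after IR, where 4.19% and 5.86% of all genes were past the limit. Without the members that carried hashtags in the other tumor matrix, the list's median in tumor neutrophils was 2.61 and 178 genes in all were past the limit. Counted without the hashtag minimum, which adds the shared barcodes to tumor control, the median of the list in tumor neutrophils was 0.17 and 69 genes in all were past the limit.

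The promoters of Rsad2, Isg15 and Ifit3, and of Cxcl10 from the chemokine list, are shown as examples in which the motif described here was found. They are the 250 bases before the RefSeq gene start (GRCm38.p6), written 5′ to 3′ on the gene's strand, with the motif of the interferon-stimulated response element, to which STAT and IRF factors bind, in capitals. The motif was searched as GAAA, any 2 bases and GAAA again, on both strands, and overlapping matches run together.
Rsad2, chr12:26456453-26456702 (minus strand): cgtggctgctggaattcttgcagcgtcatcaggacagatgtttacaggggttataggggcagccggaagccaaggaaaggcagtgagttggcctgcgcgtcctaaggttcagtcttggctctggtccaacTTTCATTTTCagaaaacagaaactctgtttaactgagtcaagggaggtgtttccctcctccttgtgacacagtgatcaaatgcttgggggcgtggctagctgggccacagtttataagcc
Isg15, chr4:156200819-156201068 (minus strand): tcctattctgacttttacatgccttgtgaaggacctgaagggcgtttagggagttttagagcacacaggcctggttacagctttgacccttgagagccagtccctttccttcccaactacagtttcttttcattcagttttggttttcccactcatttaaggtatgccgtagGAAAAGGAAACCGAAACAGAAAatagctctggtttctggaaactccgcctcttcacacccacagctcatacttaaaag
Ifit3, chr19:34583279-34583528 (plus strand): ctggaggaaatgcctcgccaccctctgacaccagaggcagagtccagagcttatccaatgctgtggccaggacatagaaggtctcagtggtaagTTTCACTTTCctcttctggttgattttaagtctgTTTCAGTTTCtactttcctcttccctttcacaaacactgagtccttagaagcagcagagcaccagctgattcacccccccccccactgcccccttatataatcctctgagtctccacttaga
Cxcl10, chr5:92348890-92349139 (minus strand): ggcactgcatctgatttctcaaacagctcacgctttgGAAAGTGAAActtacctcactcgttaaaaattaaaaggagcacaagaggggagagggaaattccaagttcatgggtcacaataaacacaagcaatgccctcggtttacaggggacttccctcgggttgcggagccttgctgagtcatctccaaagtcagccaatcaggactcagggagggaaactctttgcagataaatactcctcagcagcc
The motif was present in this window in 9 of the 21 interferon-response genes found in the promoter table (42.9%) and in 936 of all 27025 genes (3.46%). The 9 were Bst2, Gbp2, Gbp5, Ifit1, Ifit3, Ifit3b, Isg15, Rsad2 and Slfn5, and among 8 chemokines found in the table it was Cxcl10. Irf7, an interferon-response gene whose window was searched too, had 0 matches. The nearest match ended 110 bases before the start in Rsad2, 56 in Isg15, 112 in Ifit3 and 203 in Cxcl10. The hypoxia response element core ACGTG, searched in the same way, was in 12 of 19 hypoxia genes found (63.2%), P4ha1, Egln3 and Vegfa among them, and in 18.5% of all genes. A gene with several starts in the table was counted where any of its windows held the motif: of the 2 windows of Hilpda, the one before the start given above had 0 matches and the other had 1. A loose NF-kB motif (GGG, any 5 bases, CC) was in 10 of 11 NF-kB targets and in 48.7% of all genes.

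Rsad2 (chromosome 12, 26442746 to 26456452), which encodes the antiviral protein viperin, stood at 796 and 309 CPM in tumor control (WT, cKO label), 3859 and 3379 CPM in tumor IR, 151 and 98.6 CPM in blood control and 255 and 225 CPM in blood IR. Both tumor IR groups were above every other group. The log2 ratio of tumor IR to tumor control was 2.86 (2.50 to 3.24), and it was 3.29 in other tumor cells, which reached 944 CPM. Isg15, a ubiquitin-like modifier, stood at 736 and 1356 CPM in tumor control, 6159 and 5397 CPM in tumor IR, and 208 to 535 CPM in blood, with a log2 ratio of 2.402 (2.16 to 2.66). Ifit1, which binds viral RNA, had 0 and 13.4 CPM in tumor control, where 1 UMI was counted, and 1078 and 1000 CPM in tumor IR, with a log2 ratio of 6.79 (4.55 to 12.33). Ifit2, Ifit3 and Ifit3b were at 5.11, 4.96 and 4.26; Ifit3 and Ifit3b are near-identical copies whose counts may be split. Trim30c and Stat2 had no UMI in tumor control and were at least 5.92-fold and 4.29-fold higher after IR by the 3-UMI limit. Gbp2 and Ifitm3 stayed within the limit, at 0.47 and 0.83. Cxcl10 (chromosome 5), the CXCR3 ligand that attracts T cells, stood at 656 and 121 CPM in tumor control and 3700 and 1905 CPM in tumor IR, with a log2 ratio of 3.14 (2.71 to 3.62).

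**Figure D3:**
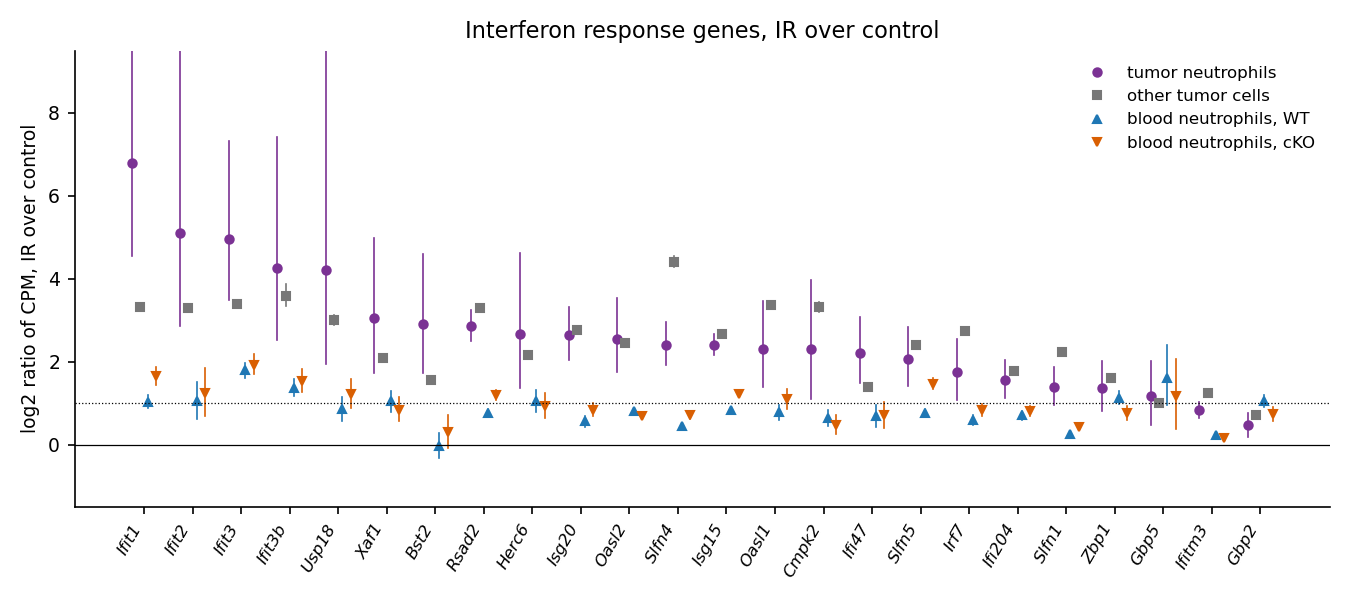
Log2 ratios of interferon-response genes after IR against control in tumor neutrophils, other tumor cells and blood neutrophils, with 95% intervals for counting error, drawn up to the edge of the axis where they go beyond it, and a dotted line at the limit of 1; in tumor neutrophils 22 of the genes drawn lay above the limit, against 9 (WT label) and 10 (cKO label) in blood.

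The response was uneven among cells. Interferon-response genes made up a median of 2.10% of the gene UMIs of a tumor IR neutrophil under each label, with 10th and 90th percentiles of 0.309% and 6.72% (WT label) and 0.346% and 6.39% (cKO label). The medians were 0.323% and 0.463% in tumor control, 0.427% and 0.432% in blood IR and 1.05% in other tumor IR cells. The 508 tumor IR neutrophils were ordered by this share and divided into 4 sets of 127. Cxcl10 stood at 408, 1178, 2118 and 9568 CPM from the lowest to the highest set and Cd274 at 618, 995, 1181 and 1394 CPM. Ccl3 (13112, 7132, 7760 and 9776 CPM) and Hilpda (2993, 1538, 1881 and 1844 CPM) were highest in the lowest set. Cxcl2 was high in both the lowest and the highest set (64616.5, 45448, 50192 and 60961 CPM). Ccl4 (16604, 12975, 14748 and 22458.5 CPM) and Il1b (25139, 25882, 29028 and 35742 CPM) were highest in the highest set. The lowest and the highest set each held 80 cells labelled WT and 47 labelled cKO, and median depth ran from 1895 to 2045 UMIs. The sets differed in other ways, whose part in these levels was not tested. From the lowest to the highest set, the median share of rule genes was 6.36%, 4.61%, 5.04% and 3.99%. Retnlg stood at 1159, 419, 475 and 639 CPM, and dendritic cell markers summed to 0.131%, 0.190%, 0.362% and 0.0562% of UMIs.

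**Figure D4:**
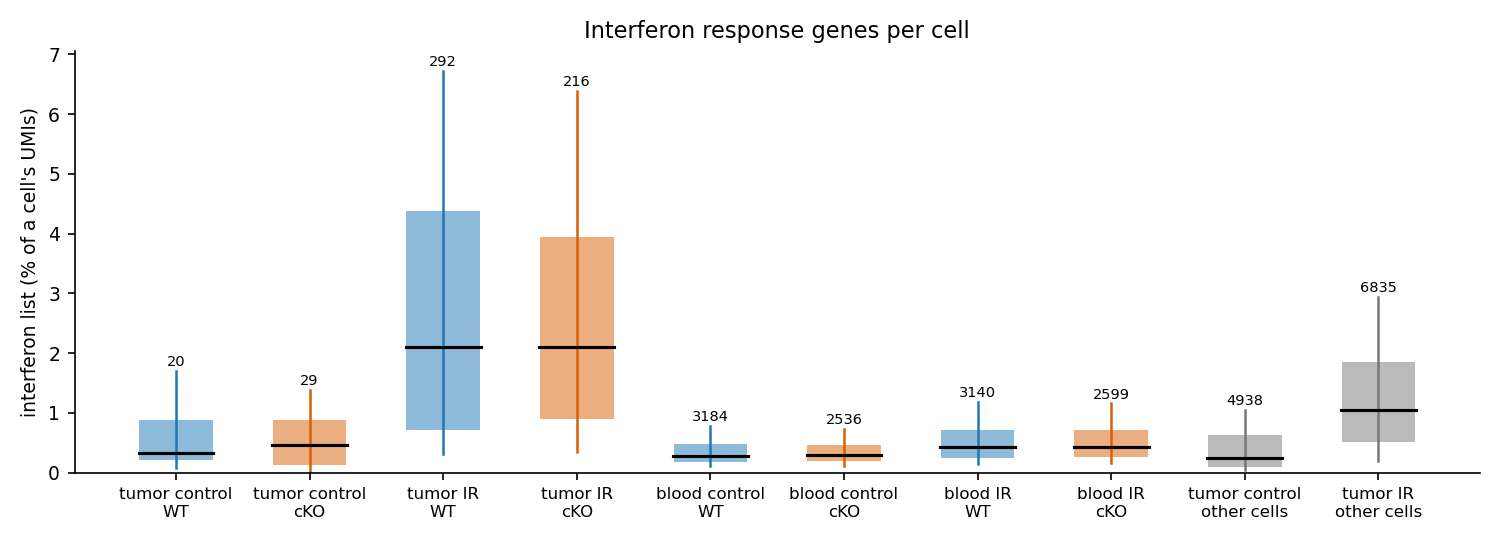
Interferon-response genes as a share of each cell's gene UMIs (percent, y axis) in the 8 neutrophil groups and in other tumor cells, with the median as a black line, the 25th to 75th percentile as a box, the 10th to 90th as a line and the number of cells above it; both tumor IR neutrophil groups had a median of 2.10%, above the medians of all other groups.

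Outside the interferon list, few listed genes passed the limit between tumor IR and tumor control neutrophils over both labels. Hilpda was higher after IR, with a log2 ratio of 1.203 (0.93 to 1.49), as were P4ha1 at 3.63 (1.35 to 9.17, 1 UMI in control) and Hk2 at 1.41. In all, 3 of 18 hypoxia genes passed the limit, where 12% of all 1405 genes did. Spp1 (osteopontin) stood at 676 and 1007 CPM in tumor control and 2669 and 3609 CPM in tumor IR, a log2 ratio of 1.80 (1.53 to 2.09), and Inhba, an activin subunit, was at 1.83 (1.41 to 2.28) over both labels, with 0.95 under the WT label, within the limit, and 3.08 under the cKO label. Both were also expressed by other tumor cells, at 2585 and 1441 CPM after IR. Ratios of summed levels differed between the labels for chemokines other than Cxcl10. Under the WT label 4 of 9 chemokines compared were higher past the limit, and under the cKO label 1 of 8, Cxcl10. Of all genes, 11.01% (WT label) and 13.26% (cKO label) were higher, so the count under the cKO label was at about that share. Ccl3 had a log2 ratio of 1.01 (0.82 to 1.201) under the WT label and -0.36 (-0.47 to -0.25) under the cKO label, with 0.09 over both. Ccl4 was at 1.08 and -0.15 in the same order and Ccl9 at 2.23 (1.02 to 3.89) and -0.51 (-1.06 to 0.07). The control level of Ccl3 was the higher one under the cKO label, 11359 against 4733 CPM, and the difference between the labels' ratios was not tested. Tumor control held 20 (WT label) and 29 (cKO label) cells. Per cell, the chemokine list had medians of 3.86% and 3.91% of gene UMIs there, with 90th percentiles of 13.3% and 27.9%. The intervals do not cover this spread between cells. Cxcl2 was at 0.85 and 0.38. Cxcl1 was at 1.70 and Cxcl9 at -1.43 over both labels; Cxcl1 was within the limit under the WT label, at 0.82, and had 0 UMIs in tumor control labelled cKO, while Cxcl9 stood at 517 and 94.0 CPM in tumor control and 96.2 and 99.4 CPM in tumor IR. Pf4, a platelet chemokine also found in macrophages, was at 2.23 (1.12 to 3.72) over both labels and stood at 904 CPM in other tumor IR cells. Csta2, a stefin-like protease inhibitor, stood at 19.9 and 13.4 CPM in tumor control, both under the level of 3 UMIs, and at 162 and 209 CPM in tumor IR. Retnlg, Lcn2 and Mmp8, which encode secreted or granule proteins of neutrophils, were lower after IR at -2.26 (-2.44 to -2.09), -1.84 and -1.82 over both labels. Retnlg was within the limit under the WT label, at -0.95 (-1.31 to -0.58), and at -2.98 (-3.23 to -2.75) under the cKO label, and Lcn2 was at -2.38 and -1.31. Anxa1, an inhibitor of neutrophil recruitment, was at -1.84 (-1.11 under the WT label, -2.09 under the cKO label) and the integrin gene Itgal at -1.60. No gene of the actin list passed the limit, and the list's median was -0.58. The control side of all these ratios held 124760 UMIs, and the tumor IR groups here are the same as those compared with blood.

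Within tumor IR, few listed genes differed past the limit between neutrophils labelled cKO and WT. Of 3644 genes compared, 78 were higher and 70 lower past the limit under the cKO label (4.06%; all-gene median 0.04). None of the 25 interferon-response genes, 20 hypoxia genes, 14 NF-kB targets, 11 cytokines and mediators or 8 actin genes passed it, and no test of equality was possible. The interferon list had a median of -0.18 and the hypoxia list one of 0.16. Lyz2 was lower under the cKO label at -3.61 (-4.004 to -3.27) and Ythdf2 higher at 2.18 (1.52 to 3.03), as above. Cxcl1 was lower at -1.46 (-1.85 to -1.10) and Cxcl10 at -0.96 (-1.07 to -0.85), just inside the limit.

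Among the genes with the lowest ratios under the cKO label were H2-Ab1, H2-Eb1 and Mrc1. H2-Ab1 and H2-Eb1, which encode MHC class II chains, stood at 478 and 330 CPM under the WT label and 121 and 71.6 CPM under the cKO label, log2 ratios of -1.97 (-2.40 to -1.58) and -2.18 (-2.75 to -1.70). Mrc1, the mannose receptor of macrophages, stood at 42.8 and 9.94 CPM (32 and 5 UMIs). In other tumor IR cells these 3 genes were at 2024, 1341 and 119 CPM. Among members with 5% or more rule genes, H2-Ab1 and Cd74, the class II invariant chain, did not show the difference, with H2-Ab1 at 85.9 CPM (WT label) and 76.9 CPM (cKO label) and Cd74 at 236 and 269 CPM, against 1394 and 599 CPM over all tumor IR members. Members with 1% to 2% rule genes numbered 64 under the WT label and 34 under the cKO label, and the part of these cells in the difference was not tested beyond the values given. Of the 10 genes with the highest ratios under the cKO label, Ythdf2 stood at 133 CPM and the other 9 at 35.8 to 63.6 CPM, Stfa2 (a stefin) at 63.6 against 8.02 CPM. The 10 with the lowest ratios held Iigp1, an interferon-inducible GTPase, at 34.7 CPM under the WT label and 1.99 CPM under the cKO label, Hspa1b, a heat shock protein, at 48.1 and 5.97 CPM, and Plet1 and Dmkn.

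The rule itself left a range of cells. In tumor IR, 98 members had 1% to 2% of their UMIs in rule genes, 177 had 2% to 5%, 147 had 5% to 10% and 86 had 10% or more. Within 0.25 points above the 1% threshold were 32 barcodes and within 0.25 points below it were 39, and in tumor control 5 and 4. Another 42 tumor IR and 4 tumor control barcodes with 1% or more had over 2 C1q UMIs. Of the 557 members, 12 had no UMI of Csf3r, Cxcr2, G0s2 or Hdc. Monocyte markers summed to 0.529% of UMIs in the lowest range and 0.0762% in the highest, and dendritic cell markers to 0.436% and 0.0378%. Ccr2, the receptor of monocyte recruitment, stood at 242 CPM at 1% to 2% and 6.50 CPM at 5% or more. Ccl3 stood at 8650, 9370 and 9601 CPM over 1% to 2%, 2% to 5% and 5% or more, Cxcl2 at 43510, 53950 and 63284 CPM, Rsad2 at 3612, 4411 and 3015 CPM and Hilpda at 2227, 2148 and 1771 CPM. These genes thus had levels of the same order in cells with few and with many rule genes. Retnlg, at 128, 346 and 1348 CPM, went up with the rule share, as did the neutrophil markers outside the rule, from 0.885% in the lowest range to 1.79% in the highest.

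**Figure D5:**
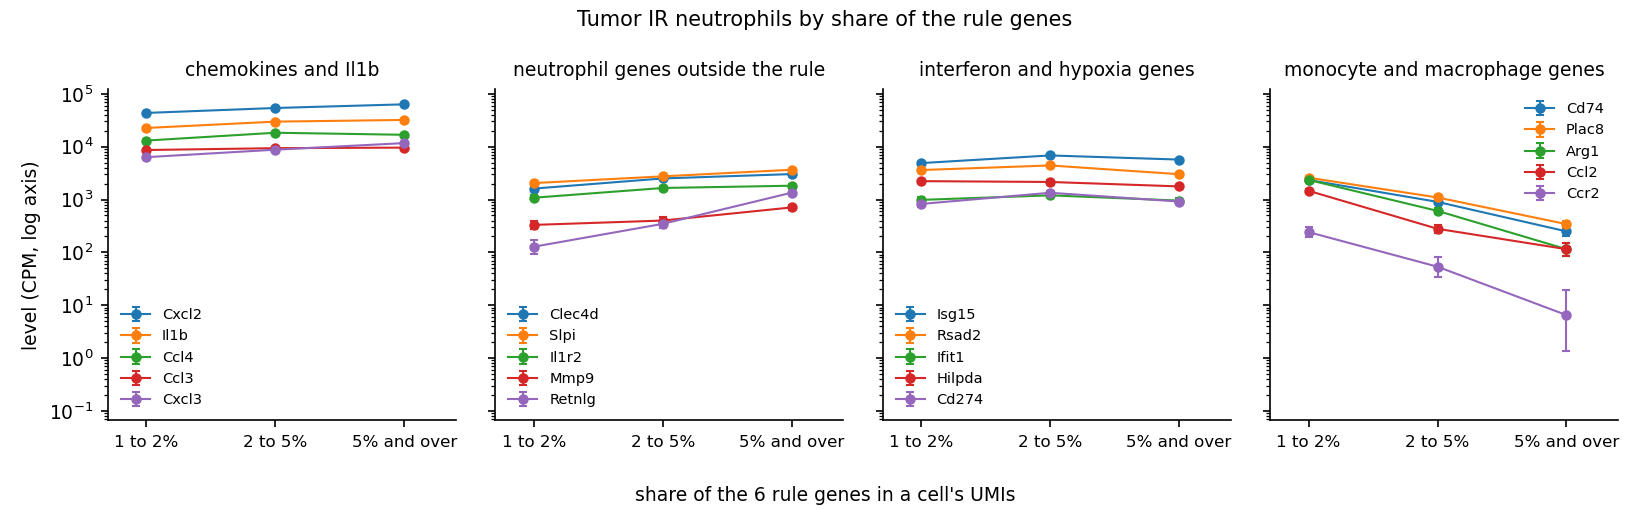
Levels of 20 genes (CPM, logarithmic y axis) in tumor IR neutrophils divided by the share of UMIs in the 6 rule genes (x axis: 1% to 2%, 2% to 5%, 5% and over; 98, 177 and 233 cells), with exact 95% Poisson intervals; Ccr2 and Arg1 ran from 242 and 2349 CPM down to 6.50 and 115 CPM, while Ccl3 stayed between 8650 and 9601 CPM.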

How the data were processed

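Cells were profiled by droplet 3′ CITE-seq, and the deposited matrices held raw UMI counts per feature and barcode for 32285 genes and 2 hashtags, with no normalization and with all barcodes kept. The authors made them with Cell Ranger (6.0.1 in the submitters' processing notes, 4 in the file header) on mm10 with GENCODE vM23, and the notes also name Seurat 4.0.6. Barcodes with at least 500 gene UMIs, 200 genes and 20 hashtag UMIs and at most 25% mitochondrial UMIs were kept. The label was WT when the B0301 hashtag was at least equal to B0302, and cKO when B0302 was at least 4 times B0301; 10 and 28 rule-positive tumor barcodes between these bounds were left out. No doublet caller was run. UMIs were summed per group and expressed as CPM with exact Poisson intervals; ratios had 1 UMI added and exact conditional binomial intervals, share differences Newcombe intervals, all at 95%. With 1 pool per group no test was made. The ratios were tested on simulated data. Positions came from GENCODE vM21 and promoters from RefSeq. The genes named were, of each list, the members with the most UMIs and those past the limit, and the 10 with the highest and the 10 with the lowest ratios per comparison where both labels pointed the same way and the interval excluded 0. Members, lists and rules were chosen with earlier results of these data known. Results for some genes are not reported here. Python 3.11.15, numpy 2.4.6, scipy 1.17.1 and pandas 2.3.3 were used.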

Additional observations from a re-analysis of the deposited data

Results flagged for a closer look

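The difference in neutrophil share between genotype labels had opposite signs in the tumor libraries: the cKO label was 0.530 points higher in tumor control and -3.24 points from the WT label in tumor IR. The difference between these 2 values was not tested, since each group was 1 pool, and the interval of the first included 0. The ratios of tumor IR to tumor control also had opposite signs under the labels for Ccl3 (log2 1.01 under WT, -0.36 under cKO) and Ccl4 (1.08 and -0.15), and their difference was not tested. The control side of these ratios held 20 (WT label) and 29 (cKO label) cells, and the spread between cells is not covered by their intervals.

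Barcodes that met the gene rule but had under 20 hashtag UMIs lay outside the comparisons and held neutrophil transcripts. There were 517 in the tumor control matrix, 7.09% of the 7289 such barcodes that passed the other filters, and 45 in the tumor IR matrix, 0.915% of 4919. All of them carried hashtags in the other tumor matrix.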

How the results depend on the processing

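With 1 pool per group, no replicate could be left out, and no paired analysis was possible because the groups shared no replicates. Alternatives were planned except 2 chosen after seeing the data (5% in tumor and blood with S100a8 and S100a9 out of the totals, and no hashtag minimum, under which barcodes without hashtags count as WT). The cause of a move was not tested unless the setting itself lowers cells or UMIs. The IR-minus-control share was 6.22 points (WT) at a 2% tumor threshold, 3.77 (WT) and 1.69 (cKO) at 5%, and 6.71 (WT) with no C1q UMI allowed; the cKO-minus-WT share in tumor IR was -1.71 points at 5%. Without the hashtag minimum these were -1.05 (WT), 2.69 (cKO) and 0.804 points, cKO minus WT in tumor control was -2.93, 69 genes were past the limit between tumor IR and control, and the interferon median was 0.17. Genes past the limit were 2344, 1853, 168 and 148 (tumor against blood WT and cKO, IR against control, cKO against WT). They were 1489, 1139, 73 and 21 at 25 expected UMIs and 972, 738, 34 and 6 with cells thinned to 500 UMIs. At 5 expected UMIs the last 2 were 333 and 405. At the 5% threshold tumor against blood (cKO) was 1150 and cKO against WT 78, and the latter was 65 with 5 UMIs added. The interferon median after IR was 2.77 at 2%, 2.69 at 5% and 2.03 thinned. Against blood (WT) it was 2.16 at 5%, 3.07 with median-of-ratios scaling and 2.05 at 5% in both. The hypoxia median against blood was 1.63 at 2%, 1.498 at 5%, 1.86 with C1q at 0, 1.84 at 10% mitochondrial UMIs, 1.77 with a 4-fold hashtag margin, 2.64 with median scaling, 1.88 with S100a8, S100a9 and mitochondrial genes out of the totals, 1.81 at 25 UMIs, 1.39 thinned and 1.35 at 5% in both. The chemokine median was 4.81 at 2%, 7.75 at 5%, 6.24 with 1% in blood, 6.31 without S100 genes in the rule, 7.36 without a C1q limit, 7.34 with the 4-fold margin, 7.32 with median scaling, 7.52 at 5 UMIs, 7.62 thinned and 7.61 at 5% in both. These list medians kept their sign in each of these settings. Cd74 (cKO against WT) turned to 0.18 at 5%. Of 428 values for single genes, 315 stayed within their interval and 112 moved; of the latter Ly6c2 (cKO against WT, -0.72) was at 0.0019 at 2% and 0.47 at 5%, and the others kept their sign.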

Other observations

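Immediate early genes, transcribed within minutes of a stimulus, went in both directions between tumor IR and blood IR neutrophils under the WT label, with 7 higher and 2 lower of 14. Ier3 and Maff were at log2 ratios of 4.42 and 4.64, and Fos and Ier2 at -1.07 and -1.14, where the median of all genes was -0.55. Among chemokine and cytokine receptors, 5 were higher and 1 lower of 12. In the same comparison 48.8% of all genes were past the limit, and the receptor list, 6 of 12, was at about that share. Ccrl2, an atypical receptor that presents chemerin, stood at 1233 to 3128 CPM in the tumor groups and 119 to 306 CPM in the blood groups. Cxcr4, which retains neutrophils in the marrow, was the lower one, at -1.41 (-1.65 to -1.18). Tnfrsf1b and Il1r2, receptors of TNF and interleukin-1, were at 1.47 and 2.02.

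Among the tumor barcodes that met the rule but carried no clear genotype label, 10 were in tumor control and 28 in tumor IR. Their median depth was 1729.5 and 4960.5 gene UMIs, against 2039 and 1963 in the labelled members.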
